A study of Mus musculus with 6 samples.

Results

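The genes described are the subunits of the proteasome and of its immunoproteasome form, with their activators and the assembly factor Pomp, chosen by name as 39 genes. Of these, 38 had a probe in the annotation of the array and 32 were detected on all 6 arrays and tested, among 9984 features of which 8149 are named genes. The samples are 3 time points, 0, 12 and 48 h, of an exposure to mica fine particles (MFP, an aluminosilicate mineral), given at a dose of 100 μg/mL. The cells were of RAW 264.7, a macrophage line from a mouse leukaemia, and the serum share of their medium was 2%. RNA of each time point was read on 2 beadchip arrays (Illumina Mouse WG-6 v2.0). All groups share the line, the medium and the dose given in the methods. The 0 h cells are called nontreated in one legend and were taken as the control. No array of untreated cells at 12 h or 48 h was analysed here, so the time in culture and the particles cannot be told apart.

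The proteasome degrades proteins that carry ubiquitin chains. Its barrel, the 20S core, is a stack of rings made of alpha subunits, which gate the entry, and of beta subunits, of which Psmb5, Psmb6 and Psmb7 carry the chymotrypsin-like, caspase-like and trypsin-like active sites. The 19S regulatory particle caps the barrel. It has a ring of ATPases that unfold substrates and non-ATPase subunits in its base and lid, some of which bind or cut off ubiquitin. Interferon induces the catalytic subunits Psmb8, Psmb9 and Psmb10, which replace the constitutive ones in newly built cores, and the activator Psme1-Psme2. The resulting immunoproteasome supplies many of the peptides that macrophages present on MHC class I.

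The arrays detected 16176 to 17155 probes each at a detection p under 0.05. The 6 arrays form 2 sets of 3, each with every time point once, as the deposited normalized table shows by its separately normalized columns. Set 1 holds 0 h replicate 1, 12 h replicate 2 and 48 h replicate 2, and set 2 holds the others. Of 8 macrophage markers 7 had a probe and all 7 were detected on every array, among them Csf1r, Spi1 and Adgre1. Markers of T cells, B cells, fibroblasts, neutrophils and dendritic cells had no member detected on all arrays, and of the epithelial list only Cdh1 was. In RNA of whole cultures, fewer cells of a kind and less RNA per cell cannot be told apart.

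At 48 h more proteasome genes were lower than higher, and no member changed 2-fold. Of the 32 tested members, 15 were lower and 6 were higher than at 0 h at an adjusted p under 0.05 (limma with Benjamini-Hochberg adjustment over all features), and 11 did not pass. Over all features 26.4% were lower and 26.3% were higher. The lower share among members, 46.9%, lay above this background and the higher share, 18.8%, below it. This background was not matched for signal level. By mean signal over all features, the lower members lay at percentiles of 72.1 (Psmb10) to 98.9 (Psmb4). Of the higher members Psmb6 and Psmb1 lay at 96.7 and 93.4, and Psmb8, Psmb5, Psmd8 and Psme2 at 58.5, 45.5, 35.6 and 21.8. A link of direction with level was not tested. The median log2 fold change of the members was -0.24, with a range of -0.67 to 0.90, against 0.01 over all features. No member reached a fold change of 2, which 10.4% of all features did in either direction, nor did any at 12 h or from 12 h to 48 h, where 1.34% and 5.68% did. Both 48 h arrays lay below both 0 h arrays for 19 members and above them for 7, where the background was 37.4% below and 38.0% above, and the arrays overlapped for 6. With the array set as a block, 17 members were lower and 6 higher, Psmb2 and Psmc4 being the additional calls, against 33.6% and 33.8% of all features. The 21 called members had the same sign within both array sets. They were called from these same arrays, so the agreement is no separate support. Scaling to the 75th percentile in place of quantile normalization ended the calls of Psmb5, Psmb8, Psme2, Psmc1, Psmd1 and Psmd7 without turning a sign, and left 12 members lower and 3 higher, where 19.8% of all features were lower and 20.2% higher. Without any normalization between arrays 0 members passed, and of all features 5.07% were lower and 2.32% higher.

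**Figure D1:**
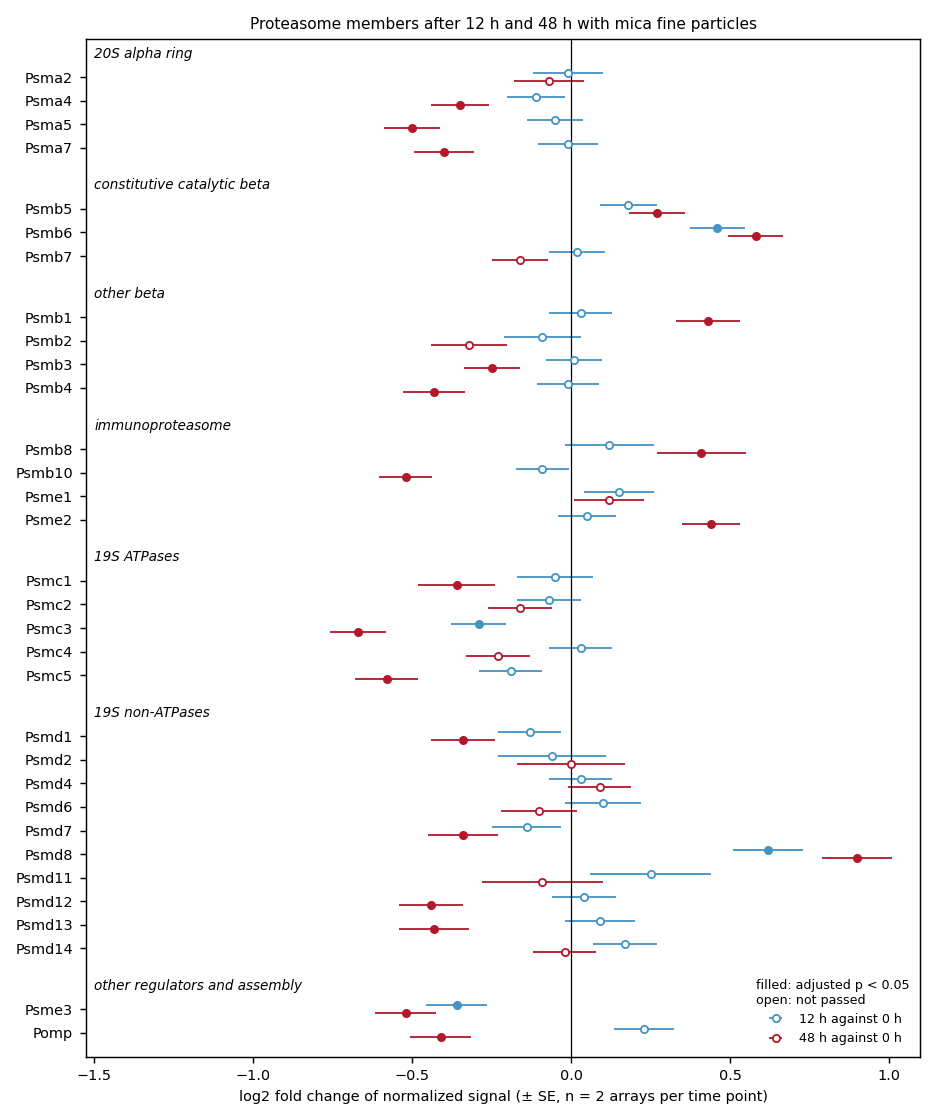
Log2 fold change against 0 h (x axis, ± SE, n = 2 arrays per time point) of the 32 tested members, in rows by subunit group, at 12 h in blue and at 48 h in red. Filled points passed an adjusted p under 0.05, and at 48 h 15 filled points lie left of 0 and 6 right of it. Of all features 26.4% were lower and 26.3% higher at 48 h.

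**Figure D2:**
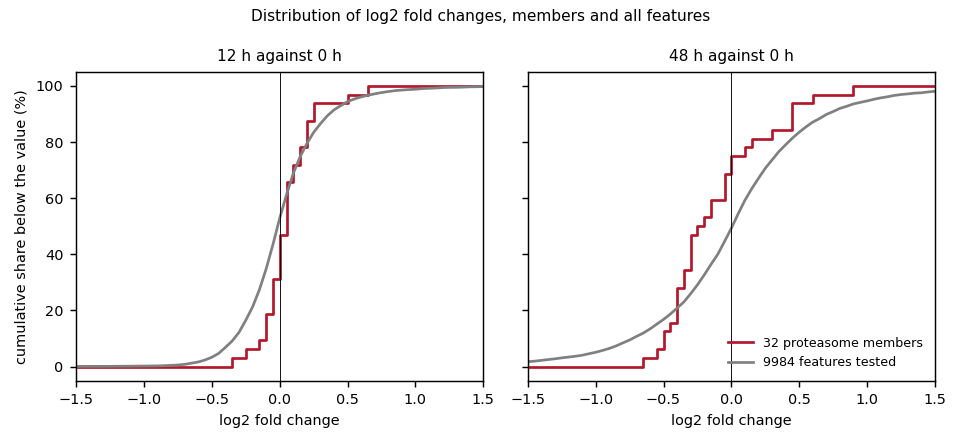
Cumulative share (y axis, %) of the 32 members in red and of all 9984 features in grey below each log2 fold change (x axis), for 12 h and 48 h against 0 h. At 48 h the red curve lies above the grey one except at its left end, with medians of -0.24 for the members and 0.01 for all features, and at 12 h the medians are 0.01 and -0.02.

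At 12 h few members had moved. Higher than at 0 h were 2 of 32 members, Psmd8 and Psmb6, and lower were 2, Psme3 and Psmc3, where 10.4% of all features were higher and 8.85% lower. With scaling to the 75th percentile none of these 4 passed, and 4.01% of all features were higher and 2.52% lower. The members' median log2 fold change was 0.01, and their range ran from -0.36 to 0.62. With the array set as a block Psmd11 and Pomp were also higher, with 19.6% of all features higher and 20.4% lower. Both 12 h arrays lay above both 0 h arrays for 6 members and below them for 6, against 27.8% and 31.0% of all features. From 12 h to 48 h, 10 members were lower and 2, Psmb1 and Psme2, were higher, against backgrounds of 20.2% lower and 19.9% higher, with a median of -0.21. Blocking on the array set gave 18 lower and 4 higher, against 28.4% and 29.5%. Both 48 h arrays lay below both 12 h arrays for 18 members and above them for 5, against 34.2% and 35.5%. The comparisons with 0 h share the 0 h arrays, and those with 12 h share the 12 h arrays.

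Among the constitutive catalytic subunits, those with the chymotrypsin-like and the caspase-like site rose at 48 h and the one with the trypsin-like site did not pass. Psmb6, the caspase-like subunit, had log2 normalized signals of 13.30 and 13.32 at 0 h, then 13.81 and 13.71 at 12 h and then 13.86 and 13.91 at 48 h. All treated arrays lay above both 0 h arrays. Its log2 fold change was 0.58 ± 0.09 at 48 h (SE, n = 2 arrays each, limma adjusted p = 0.000736) and 0.46 ± 0.09 at 12 h (limma adjusted p = 0.0104). A second probe of the gene gave 0.74 at 48 h and 0.69 at 12 h. The call at 48 h was made whichever array was left out, while at 12 h it was lost without 0 h replicate 1, 0 h replicate 2 or 12 h replicate 1, with log2 fold changes of 0.45, 0.48 and 0.40 (limma adjusted p = 0.0573, 0.0592 and 0.0643).

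Psmb5, the chymotrypsin-like subunit, had log2 signals of 9.14 and 9.03 at 0 h, then 9.29 and 9.23 at 12 h and then 9.32 and 9.39 at 48 h. Its course was the same with smaller steps, and no treated array overlapped with 0 h. The log2 fold change was 0.27 ± 0.09 at 48 h (limma adjusted p = 0.032) and 0.18 ± 0.09 at 12 h (limma adjusted p = 0.21). The 48 h call was lost without either 0 h array or either 48 h array, with log2 fold changes of 0.22 to 0.32 and adjusted p-values by limma up to 0.153. Psmb7, the trypsin-like subunit, had log2 signals of 13.32 and 13.21 at 0 h, then 13.29 and 13.28 at 12 h and then 13.08 and 13.14 at 48 h. Both 48 h arrays lay below the 0 h arrays, with a log2 fold change of -0.16 ± 0.09 (limma adjusted p = 0.171). The other 3 detected probes of Psmb7 gave -0.30, -0.30 and -0.29, of which 1 passed when adjusted over all kept probes (limma adjusted p = 0.0265), and with the mean of its probes the gene was called at -0.26.

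The promoters of Psmb5 and Psmb6 are shown because both rose at 48 h and hold the core of the antioxidant response element (ARE), to which NRF1 and NRF2 with small MAF proteins bind, within the 250 bases before the start site of the table. The sequences are from RefSeq on GRCm38.p6, at chr14:54617996-54618245 on the minus strand and chr11:70525107-70525356 on the plus strand, written 5′ to 3′ along the gene with the motif TGACNNNGC in capitals.
Psmb5 promoter: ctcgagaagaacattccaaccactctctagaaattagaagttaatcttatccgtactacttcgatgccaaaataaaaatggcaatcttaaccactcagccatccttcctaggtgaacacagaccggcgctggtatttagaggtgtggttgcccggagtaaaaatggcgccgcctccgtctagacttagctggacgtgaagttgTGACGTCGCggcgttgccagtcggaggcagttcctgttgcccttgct
Psmb6 promoter: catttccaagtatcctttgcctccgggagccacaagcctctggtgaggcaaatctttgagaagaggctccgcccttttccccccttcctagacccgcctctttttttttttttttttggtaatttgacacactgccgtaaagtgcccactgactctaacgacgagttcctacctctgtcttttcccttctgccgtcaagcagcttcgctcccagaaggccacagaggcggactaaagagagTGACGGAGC
The first base of the motif lies at -47 from the start of Psmb5. In the Psmb6 window it lies at -9, counted from a start site inside the annotated gene span, so that the last 33 bases of the window and the motif, from base 25 of the span, are within the gene. Windows of 9 of the 33 members reach into the gene span. Searched on both strands, the motif was in 4 of the 33 members with a promoter window, 12.1%, and in 11.5% of all genes with one. Of the 5 members with a window that rose at 48 h, 2 had it, and of the 13 that fell 1 had it, Psmd12. The CCAAT box, searched as CCAAT on both strands, was in 12 of the 33 windows, 36.4%, against 37.5% of all genes. A match says only that these letters are in the window.

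The other beta subunits complete the ring without an active site, and they split. Psmb1 had log2 signals of 12.63 and 12.78 at 0 h, then 12.82 and 12.64 at 12 h and then 13.14 and 13.14 at 48 h. Its 12 h arrays overlapped with the 0 h arrays and its 48 h arrays lay above all others, with a log2 fold change of 0.43 ± 0.10 at 48 h (limma adjusted p = 0.00696) and 0.03 at 12 h. Psmb4 read 14.89 and 14.76 at 0 h, then 14.83 and 14.80 at 12 h and then 14.31 and 14.48 at 48 h and was lowest at 48 h. Its log2 fold change was -0.43 ± 0.10 at 48 h (limma adjusted p = 0.0059), and the call was lost without 48 h replicate 1 (-0.34, limma adjusted p = 0.0516). Psmb3 fell by 0.25 on the log2 scale (limma adjusted p = 0.0414), a call that leaving out any 1 of the 6 arrays removed, with log2 fold changes of -0.31 to -0.19 and adjusted p-values of 0.0548 to 0.187. Psmb2 had -0.32 and did not pass (limma adjusted p = 0.058), but passed with the array set as a block (limma adjusted p = 0.00138) and without 48 h replicate 2 (-0.45, limma adjusted p = 0.0265).

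The alpha ring was lower at 48 h in 3 of its 4 tested members, where 26.4% of all features were lower, and the median of the 4 was -0.37 on the log2 scale. At 12 h none of the 4 passed, where 10.4% of all features were higher and 8.85% lower. Psma5 had log2 signals of 14.77 and 14.76 at 0 h, then 14.72 and 14.71 at 12 h and then 14.20 and 14.34 at 48 h. The drop lay between 12 h and 48 h, with a log2 fold change of -0.50 ± 0.09 against 0 h (limma adjusted p = 0.00198) and -0.45 ± 0.09 against 12 h (limma adjusted p = 0.00497). Psma7 had 13.30 and 13.17 at 0 h, then 13.22 and 13.23 at 12 h and then 12.91 and 12.76 at 48 h. It fell by 0.40 on the log2 scale (limma adjusted p = 0.00768) and its second probe by 0.47, and the call was lost without 0 h replicate 1 or 48 h replicate 2 (limma adjusted p = 0.0523 and 0.0505). Psma4 fell by 0.35 (limma adjusted p = 0.0124), a call lost without 0 h replicate 1 (-0.28, limma adjusted p = 0.0781) or 48 h replicate 1 (-0.34, limma adjusted p = 0.053). Psma2, whose product lies in the same ring, had -0.07 and overlapping arrays. Probes of Psma1, Psma3 and Psma6 were detected on no array and were not tested.

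The immunoproteasome genes did not move as one. Of the 4 tested members Psmb8 and Psme2 rose at 48 h, Psmb10 fell and Psme1 did not pass, with a median log2 fold change of 0.27, and at 12 h none of the 4 passed. Over all features 26.3% were higher and 26.4% lower at 48 h, and 10.4% were higher and 8.85% lower at 12 h. Psmb8, the inducible chymotrypsin-like subunit, had log2 signals of 9.72 and 9.88 at 0 h, then 10.10 and 9.73 at 12 h and then 10.32 and 10.10 at 48 h. The 48 h arrays lay above the 0 h arrays, with 12 h replicate 1 above and 12 h replicate 2 among the 0 h arrays. Its log2 fold change was 0.41 ± 0.14 at 48 h (limma adjusted p = 0.0374), with 0.38 in set 1 and 0.44 in set 2. Its second probe gave 0.24 and did not pass when adjusted over all kept probes (limma adjusted p = 0.132). The call was lost without 0 h replicate 1, 0 h replicate 2 or 48 h replicate 1, with log2 fold changes of 0.33, 0.49 and 0.31 (limma adjusted p = 0.178, 0.0697 and 0.165).

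Psmb10, the inducible trypsin-like subunit, went the other way. Its log2 signals read 11.03 and 11.06 at 0 h, then 10.99 and 10.92 at 12 h and then 10.51 and 10.53 at 48 h. The 48 h arrays lay below all others, at -0.52 ± 0.08 against 0 h (limma adjusted p = 0.00107) and -0.43 ± 0.08 against 12 h (limma adjusted p = 0.00436). The second probe gave -0.43 (limma adjusted p = 0.00432 over all kept probes), and the call was made whichever array was left out.

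Psmb9, the inducible caspase-like subunit, was at the edge of detection. Before normalization its signals read 149 and 140 at 0 h, then 114 and 164 at 12 h and then 147 and 168 at 48 h, and 12 h replicate 1 missed the detection threshold of 0.05, at 0.0855. Under a filter that asks for detection on 2 arrays its log2 fold change at 48 h was 0.24 and did not pass (limma adjusted p = 0.148). The promoters of Psmb8 and Psmb10 are shown because these partners in one particle moved in opposite directions. They are from RefSeq on GRCm38.p6, at chr17:34197945-34198194 on the plus strand and chr8:105938393-105938642 on the minus strand, and neither holds the ARE core, the CCAAT box or the interferon-stimulated response element (ISRE) searched as GAAA, any 2 bases and GAAA on both strands, so no letter is in capitals.
Psmb8 promoter: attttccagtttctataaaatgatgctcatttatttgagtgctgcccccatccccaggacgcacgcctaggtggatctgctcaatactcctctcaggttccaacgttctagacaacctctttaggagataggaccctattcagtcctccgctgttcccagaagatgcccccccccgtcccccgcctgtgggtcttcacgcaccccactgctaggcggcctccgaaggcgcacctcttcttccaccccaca
Psmb10 promoter: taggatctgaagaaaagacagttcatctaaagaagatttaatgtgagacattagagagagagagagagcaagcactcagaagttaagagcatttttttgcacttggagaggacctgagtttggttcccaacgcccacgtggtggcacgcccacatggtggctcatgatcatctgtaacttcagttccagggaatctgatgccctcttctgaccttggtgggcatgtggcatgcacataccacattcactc
The ISRE letters were in 2 of the 33 member windows, those of Psmb3 and Psmd4, which is 6.06% against 3.46% of all genes. This search says nothing of sites outside the window.

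Of the partners of the proteasome activator that opens the core in response to interferon, Psme2 passed at 48 h and Psme1 did not. Psme2 had log2 signals of 7.90 and 7.75 at 0 h, then 7.90 and 7.85 at 12 h and then 8.27 and 8.25 at 48 h. Only its 48 h arrays stood above the others, with a log2 fold change of 0.44 ± 0.09 against 0 h (limma adjusted p = 0.00438) and 0.38 ± 0.09 against 12 h (limma adjusted p = 0.0115). The call against 12 h was lost without 12 h replicate 2 or 48 h replicate 1 (0.35 and 0.38, limma adjusted p = 0.065 and 0.0503). Psme1 had 12.23 and 12.16 at 0 h, then 12.23 and 12.47 at 12 h and then 12.37 and 12.27 at 48 h. Its log2 fold change of 0.12 ± 0.11 at 48 h did not pass (limma adjusted p = 0.369), and its second probe gave -0.06. By the probe used, both 48 h arrays of Psme1 lay above both 0 h arrays. The difference between Psme2 and Psme1 was not tested.

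**Figure D3:**
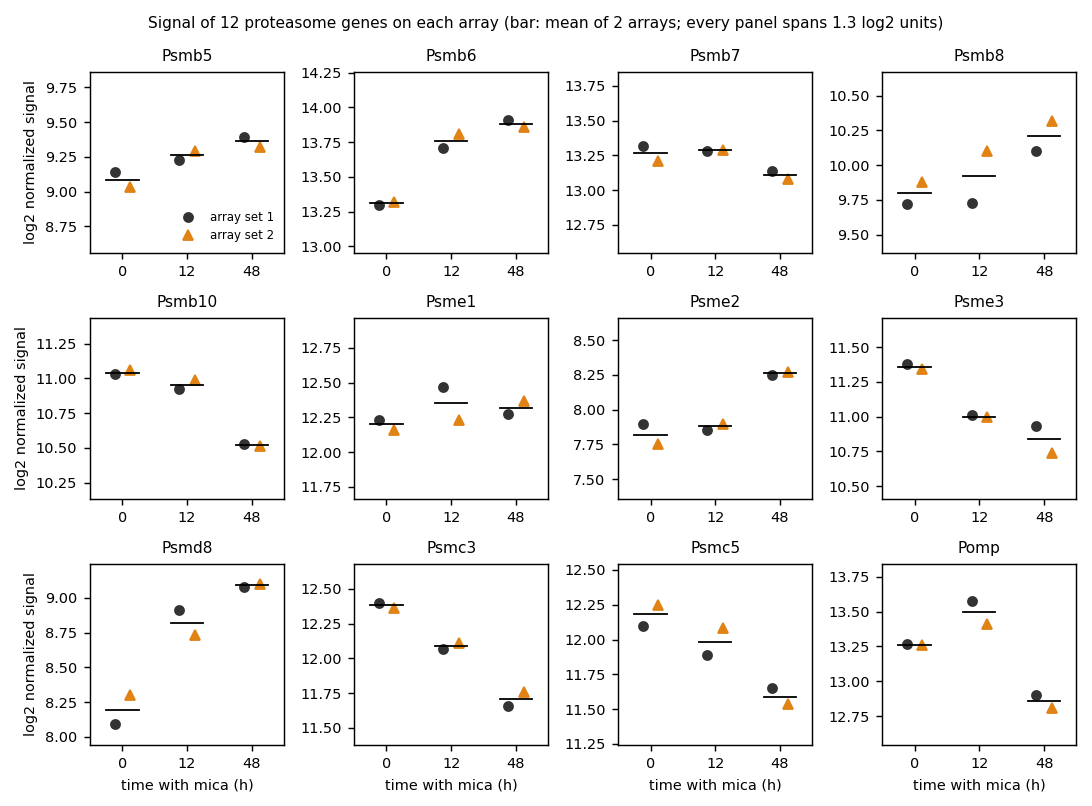
Log2 normalized signal (y axis, each panel spanning 1.3 log2 units) of 12 members on every array at 0, 12 and 48 h (x axis), with circles for array set 1, triangles for array set 2 and bars for the mean of 2 arrays. Psmb6 and Psmd8 are above 0 h by 12 h, Psmb10, Psmc3, Psmc5 and Pomp are lowest at 48 h, and Psme1 overlaps between 12 h and the other times.

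Inducible and constitutive subunits were set against each other within pairs that share a place in the ring, as differences of log2 fold changes that were not tested. For Psmb8 minus Psmb5 the difference at 48 h was 0.14, with 0.12 in set 1 and 0.16 in set 2. For Psmb10 minus Psmb7 it was -0.37, with -0.32 in set 1 and -0.42 in set 2. For Psmb9 minus Psmb6, under the filter of 2 arrays, it was -0.34. Of these differences, taken from the brightest probe of each gene, only that of Psmb8 and Psmb5 was above 0. They depend on the probe. The second probe of Psmb8 gave 0.24, against 0.27 for Psmb5. That of Psmb10 gave -0.43, against -0.30 to -0.29 for the other detected probes of Psmb7. Psmb9 was read near background, at signals of 114 to 168.

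Psmb8 and Psmb9 lie beside the peptide transporter genes in the MHC region. On chromosome 17 of GRCm38.p6 the gene spans of Psmb9 and Tap1 are 225 bases apart, Tap1 and Psmb8 969 bases and Psmb8 and Tap2 3024 bases. The transporter genes rose at 48 h. Tap1 had log2 signals of 8.47 and 8.31 at 0 h, then 8.52 and 8.62 at 12 h and then 9.21 and 9.37 at 48 h, a log2 fold change of 0.90 ± 0.10 after 48 h (limma adjusted p = 0.000175). Tap2 had 9.60 and 9.54 at 0 h, then 9.84 and 9.86 at 12 h and then 10.59 and 10.49 at 48 h, with 0.97 ± 0.09 (limma adjusted p = 5e-05). Their difference from Psmb8, which had 0.41, was not tested. Psme1 and Psme2 lie 5912 bases apart on chromosome 14.

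The ATPases of the 19S particle, which form the ring that unfolds substrates, were lower at 48 h in 3 of 5 tested members. Over all features 26.4% were lower. The median of the 5 was -0.36, with no member above 0. Psmc3 had log2 signals of 12.40 and 12.36 at 0 h, then 12.11 and 12.07 at 12 h and then 11.76 and 11.66 at 48 h. Every array of a later time lay below those of the earlier times. It had the largest fall of the tested members, a log2 fold change of -0.67 ± 0.09 at 48 h (limma adjusted p = 0.000333) and -0.29 ± 0.09 at 12 h (limma adjusted p = 0.0492). The 12 h call was lost with any 1 of the 6 arrays left out, with adjusted p-values up to 0.194. Psmc5 had 12.10 and 12.25 at 0 h, then 12.08 and 11.89 at 12 h and then 11.54 and 11.65 at 48 h, with a log2 fold change of -0.58 ± 0.10 at 48 h (limma adjusted p = 0.00195) and -0.71 by its second probe. Psmc1 fell by 0.36 (limma adjusted p = 0.0384), a call lost without 0 h replicate 1, 0 h replicate 2 or 48 h replicate 2 (limma adjusted p = 0.0935, 0.152 and 0.193). Psmc2 and Psmc4 had -0.16 and -0.23 and did not pass, although Psmc4 did with the array set as a block (limma adjusted p = 0.0144). Psmc6 was detected on no array.

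The non-ATPase subunits of the 19S particle held the largest rise of all members. Psmd8, a lid subunit, had log2 signals of 8.09 and 8.30 at 0 h, then 8.73 and 8.91 at 12 h and then 9.10 and 9.08 at 48 h. The arrays of the 3 time points did not overlap. Its log2 fold change was 0.90 ± 0.11 at 48 h, a fold change of 1.86 (limma adjusted p = 0.000216), and 0.62 ± 0.11 at 12 h (limma adjusted p = 0.00666), and the step of 0.27 ± 0.11 from 12 h to 48 h did not pass (limma adjusted p = 0.0754) but did with the array set as a block (limma adjusted p = 0.0155). Without 1 array the 48 h change ran from 0.78 to 1.01 and stayed called, while the 12 h call was lost without 0 h replicate 1 (0.51, limma adjusted p = 0.0504). Its other annotated probe was detected on no array.

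Psmd12, a scaffold subunit of the same lid, fell. Its log2 signals read 12.46 and 12.34 at 0 h, then 12.37 and 12.53 at 12 h and then 12.02 and 11.91 at 48 h, with a log2 fold change of -0.44 ± 0.10 at 48 h (limma adjusted p = 0.00646) and -0.48 against 12 h (limma adjusted p = 0.00597). A second probe gave -0.30 (limma adjusted p = 0.0339 over all kept probes). The promoters of these lid genes are shown as those of the largest rise and of the fallen member with an ARE core, from RefSeq on GRCm38.p6 at chr7:29180674-29180923 on the minus strand and chr11:107479278-107479527 on the plus strand. The Psmd8 window has no match to any of the motifs, and in that of Psmd12 the ARE core is in capitals on the reverse strand, its leftmost base at -247.
Psmd8 promoter: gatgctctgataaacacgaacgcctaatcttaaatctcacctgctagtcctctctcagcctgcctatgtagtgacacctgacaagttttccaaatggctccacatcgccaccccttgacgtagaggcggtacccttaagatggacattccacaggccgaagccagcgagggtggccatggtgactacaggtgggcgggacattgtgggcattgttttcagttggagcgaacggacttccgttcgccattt
Psmd12 promoter: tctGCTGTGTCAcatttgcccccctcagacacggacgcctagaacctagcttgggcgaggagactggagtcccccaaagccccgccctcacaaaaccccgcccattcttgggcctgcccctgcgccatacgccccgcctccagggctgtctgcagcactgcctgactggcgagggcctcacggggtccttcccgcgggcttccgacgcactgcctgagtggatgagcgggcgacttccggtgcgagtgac
Promoter windows were given for 33 members and not for Psmb1, Psmb2, Psmb7, Psmc3, Psmd3 and Psmd7.

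The remaining lid and base subunits fell or did not pass. Psmd13, a lid subunit, fell by 0.43 on the log2 scale (limma adjusted p = 0.00895), Psmd1, the largest scaffold of the base, by 0.34 (limma adjusted p = 0.0221), and Psmd7, the partner of the deubiquitinase Psmd14, by 0.34 (limma adjusted p = 0.0368). These calls were lost for Psmd13 without 0 h replicate 1 or 48 h replicate 1, for Psmd1 without 0 h replicate 2 or 48 h replicate 2, and for Psmd7 without 0 h replicate 1, 0 h replicate 2 or 48 h replicate 1, with adjusted p-values up to 0.0636, 0.145 and 0.215. The other detected probes gave -0.43 and -0.56 for Psmd1 and -0.63 and -0.20 for Psmd7. Psmd14 itself, which removes ubiquitin chains as substrates enter, had -0.02, and the ubiquitin receptors Psmd2 and Psmd4 had 0.00 and 0.09. Psmd6 and Psmd11 had -0.10 and -0.09 with overlapping arrays. The probes of Psmd2 and Psmd6 were dim, at percentiles of 12.1 and 11.9 of mean signal, where Psmd4 was at 97.9. Their array sets differed in sign, with -0.15 and 0.15 for Psmd2 and 0.15 and -0.35 for Psmd6. Their values do not show that these genes were unchanged. Psmd3 was detected on no array. In all, the non-ATPase group had 1 member higher, 4 lower and 5 not passed, with a median of -0.09. Over all features 26.3% were higher and 26.4% lower.

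Psme3, the nuclear activator that works without ATP, was lower at both times. Its log2 signals read 11.38 and 11.34 at 0 h, then 11.00 and 11.01 at 12 h and then 10.74 and 10.93 at 48 h. No treated array overlapped with 0 h, with log2 fold changes of -0.52 ± 0.10 at 48 h (limma adjusted p = 0.00217) and -0.36 ± 0.10 at 12 h (limma adjusted p = 0.0366). The 12 h call was lost without any 1 of the 0 h or 12 h arrays, with adjusted p-values of 0.127 to 0.143.

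Pomp, the chaperone that guides the assembly of core particles and is spent on it, lay above 0 h at 12 h and below it at 48 h. Its log2 signals read 13.27 and 13.26 at 0 h, then 13.41 and 13.58 at 12 h and then 12.81 and 12.90 at 48 h. Both 12 h arrays lay above the 0 h arrays and both 48 h arrays below them. The 12 h change of 0.23 ± 0.10 did not pass (limma adjusted p = 0.127) but did with the array set as a block (limma adjusted p = 0.0248). At 48 h the log2 fold change was -0.41 ± 0.10 against 0 h (limma adjusted p = 0.00725) and -0.64 ± 0.10 against 12 h (limma adjusted p = 0.00118). Psmf1, an inhibitor of the core, had no probe in the annotation used here.

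Members with more than 1 detected probe allowed a check within a gene. Of the 18 further probes of 14 members, 15 had the same call as the probe used and 15 the same sign of change at 48 h. No probe was called in the opposite direction, and the median absolute difference was 0.14 on the log2 scale.

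Genes around the proteasome were read from lists of related functions, with all features as the background, of which 26.3% were higher and 26.4% lower at 48 h. Among assembly chaperones, 1 of 7 tested was higher at 48 h, Psmd10 (0.40, limma adjusted p = 0.00566), which helps build the ATPase ring, and 1 was lower, Psmg3 (-0.66, limma adjusted p = 0.00258), which helps build the alpha ring. The enzymes that ride on the 19S particle and trim ubiquitin both fell, Uchl5 by 0.61 and Usp14 by 0.60 on the log2 scale (limma adjusted p = 0.00249 and 0.00256), while the other 4 tested genes of their list did not pass. With the array set as a block 2 of these 4 were higher, Sem1 (0.32, limma adjusted p = 0.00213) and the activator Psme4 (0.35, limma adjusted p = 0.000679), and the block also added Ecpas (0.22) as higher and Psmg1 (-0.23) and Psmd9 (-0.34) as lower among the chaperones. The genes named here for their call under the block were chosen after their values were seen, as were those named for it in the other lists. Of the ubiquitin genes and E1 enzymes 1 was detected, Uba6, an enzyme that activates ubiquitin. Its log2 signals read 10.04 and 9.93 at 0 h, then 10.26 and 10.70 at 12 h and then 11.72 and 12.13 at 48 h, a log2 fold change of 1.94 ± 0.17 (limma adjusted p = 4.5e-05), past that of every proteasome member. Of 9 shuttle and extraction factors 2 were higher, Faf2 (0.66) and Faf1 (0.58), and 2 lower, Ubqln4 (-0.87) and the unfolding ATPase Vcp (-0.37), and the block added Nsfl1c as lower (-0.18).

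The transcription factor known for raising proteasome genes when the proteasome is short, NRF1, is encoded by Nfe2l1. Nfe2l1 had log2 signals of 11.82 and 11.82 at 0 h, then 12.38 and 12.22 at 12 h and then 13.07 and 12.96 at 48 h. The time points did not overlap, with log2 fold changes of 1.20 ± 0.10 at 48 h (limma adjusted p = 2.62e-05) and 0.48 ± 0.10 at 12 h (limma adjusted p = 0.0116). Its small MAF partner Mafg rose by 0.79 at 48 h (limma adjusted p = 0.000588), and Nfe2l2, which encodes NRF2, had 0.17 and did not pass. Bach1 had 0.32 and did not pass (limma adjusted p = 0.483) but did with the array set as a block (limma adjusted p = 0.00866). Its arrays overlapped, and its change was 0.09 in set 1 and 0.56 in set 2. At 48 h 15 proteasome members were lower and 6 higher, where 26.4% of all features were lower and 26.3% higher. A link of the members' changes with Nfe2l1 was not tested.

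Genes of interferon signalling that lead to the immunoproteasome were higher at 48 h in 7 of 11 tested and lower in none, with a median of 0.41. Over all features 26.3% were higher and 26.4% lower. From 12 h to 48 h 4 of the 11 were higher and 1 lower, against 19.9% and 20.2%. The lower one was Irf9 (-0.62, limma adjusted p = 0.00174), named after its values were seen. It had 0.44 at 12 h (limma adjusted p = 0.0202) and -0.18 at 48 h, which did not pass. The transcriptional activator of MHC class I genes, Nlrc5, had log2 signals of 9.85 and 9.93 at 48 h, against 8.78 and 8.38 at 0 h, a log2 fold change of 1.31 ± 0.14 (limma adjusted p = 0.000128), and 0.31 at 12 h, which did not pass (limma adjusted p = 0.17) but did with the array set as a block (limma adjusted p = 0.00905). Irf1, which drives the inducible catalytic subunits, had 0.93 at 48 h (limma adjusted p = 0.000126) and 0.53 at 12 h (limma adjusted p = 0.0101). The kinase Jak2 had 0.90 and Stat2 0.87 at 48 h, and Stat2 had 0.81 already at 12 h. Among genes of class I peptide loading 3 of 7 were higher, Tap2, Tap1 and the light chain B2m (0.81, limma adjusted p = 0.000158), and 2 were lower, the chaperones Calr (-0.90) and Pdia3 (-0.26). Tapbp, which tethers class I molecules to the transporter, had 0.40 and did not pass (limma adjusted p = 0.0892) but did with the array set as a block (limma adjusted p = 0.000837). Of 4 cytosolic peptidases that trim or destroy proteasome products, Nln was higher (0.75) and Thop1 (-1.16) and Blmh (-0.58) were lower at 48 h.

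**Figure D4:**
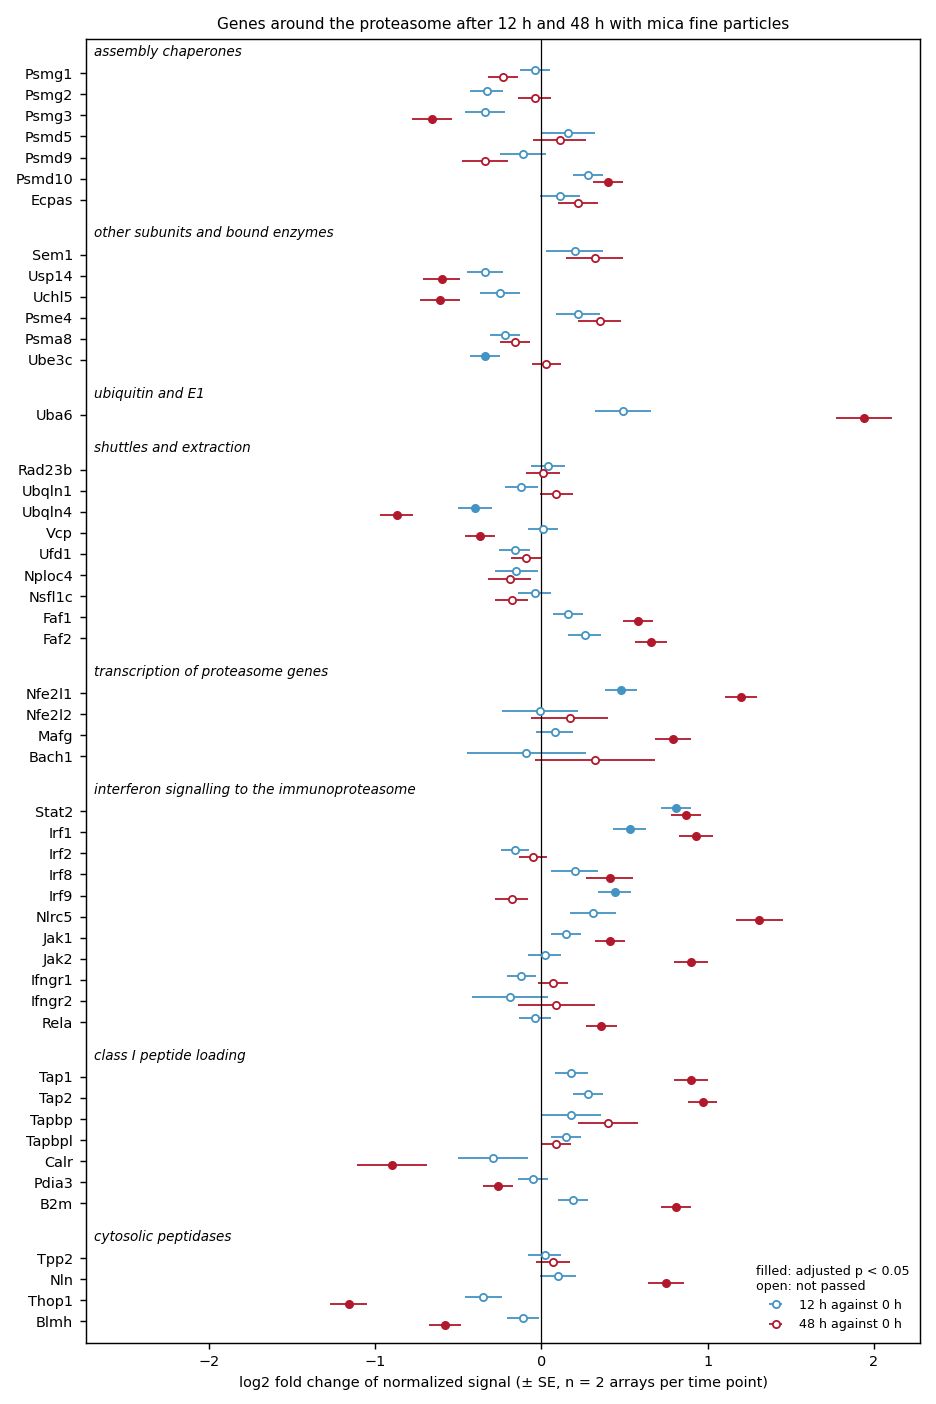
Log2 fold change against 0 h (x axis, ± SE, n = 2 arrays per time point) of the tested genes around the proteasome, in rows by list, at 12 h in blue and at 48 h in red, filled where the adjusted p was under 0.05. Interferon signalling genes have 7 filled points right of 0 at 48 h and none left of it, where 26.3% of all features were higher and 26.4% lower. Uba6 at 1.94 and Nfe2l1 at 1.20 lie beyond all proteasome members.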

How the data were processed

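Expression data of RAW 264.7 cells, 2 arrays for each of 3 time points, were taken as deposited. The authors read out the intensity of each probe with GenomeStudio and deposited these intensities unlogged and not normalized between arrays, each beside its detection p-value. The deposited normalized table holds log2 values after quantile normalization and was used as an alternative only. The methods name quantile normalization and the submitters' processing notes R 3.0.2. Only probes detected (p under 0.05) on each of the 6 arrays were used (14091 of 45281, 31.1%), as log2 values after quantile normalization. Symbols came from the platform annotation, updated by Entrez ID for 12244 of 12256 kept probes with 1 symbol. The brightest probe stood for a gene. Features were fitted with limma 3.58.1 in R 4.3.3, with a mean per time point, eBayes and Benjamini-Hochberg adjustment over 9984 features, and called at an adjusted p under 0.05, and the script was tested on simulated data. The fit has 3 residual degrees of freedom, and the number of arrays limits the precision. Whether both arrays of a time point stem from different cultures is not given in the sources used here, so the p-values reflect the spread among these arrays alone, and that spread may be technical. Members, lists and the rule for named genes were chosen with earlier results of these data known. Values on every array were given for the immunoproteasome, the catalytic subunits, Psme3, Pomp and the 2 members of each other group with the largest change at 48 h, and up to 4 called genes of each related list. Lists and groups are described by counts and medians, without a test. Settings varied were the detection filter, the background, the normalization, the choice of probe, blocks, the prior, the test, the call rule and single arrays left out.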

Additional observations from a re-analysis of the deposited data

Results flagged for a closer look

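For 12 members the change at 48 h differed from the change at 12 h by the test of that difference itself, the contrast of 48 h with 12 h in the limma fit (adjusted p under 0.05). The difference, as the log2 change at 48 h minus that at 12 h, was above 0 for Psmb1 (0.41) and Psme2 (0.38). It was below 0 for Pomp (-0.64), Psmd13 (-0.52), Psmd12 (-0.48), Psma5 (-0.45), Psmb10 (-0.43), Psmb4 (-0.42), Psma7 (-0.39), Psmc5 (-0.39), Psmc3 (-0.38) and Psmb3 (-0.26). Over all features 19.9% had a difference above 0 and 20.2% one below 0 at that threshold. Leaving out 1 array ended the call for Psma7 (without either 12 h array or 48 h replicate 2), Psmb1 (without 12 h replicate 2), Psmb3 (without any array), Psmb4 (without 48 h replicate 1), Psme2 (without 12 h replicate 2 or 48 h replicate 1), Psmc3 (without 12 h replicate 1 or 48 h replicate 2) and Psmc5 (without 12 h replicate 1 or 48 h replicate 1), with adjusted p-values by limma of 0.0503 to 0.172. Groups of 2 arrays are too small for a search for outlying samples.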

How the results depend on the processing

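The 21 calls at 48 h kept their sign under every setting run, and 11 passed with any 1 array left out, which are Psma5, Psmb6, Psmb1, Psmb10, Psme2, Psmc3, Psmc5, Psmd8, Psmd12, Psme3 and Pomp. The settings reuse the arrays that gave the calls, so a kept sign is no separate support. The share of all called features that passed with any 1 array left out was not computed. Members higher and lower at 48 h against 0 h were 6 and 15. Shares of all features, higher and lower, follow each setting in brackets and moved with it, from 26.3% and 26.4%. The member counts were 0 and 0 with no normalization (2.32% and 5.07%), with the deposited normalized table (3.1% and 3.05%) and at a fold change of 2 with the adjusted p (5.35% and 5.07%) or without (5.35% and 5.08%), and 1 and 2 with the methods' t-test after Benjamini-Hochberg (8.78% and 8.69%). That test unadjusted gave 8 lower (21.1%), and scaling to the 75th percentile 3 higher (20.2%). The deposited table with the array set as a block gave 6 and 17 (33% and 33.8%). At 12 h (2 and 2) the counts were 0 and 0 with 75th-percentile scaling (4.01% and 2.52%), no normalization (0.0501% and 0%), the deposited table and the t-test after Benjamini-Hochberg (0% and 0% each) and the fold rules (1.17% and 0.17%), 4 higher with the array set as a block (19.6%), 0 lower with normexp background correction, offset 16 (6.26%), and 1 lower with detection on 2 arrays (6.81%), no detection filter (2.8%), every probe as a feature (8.01%) or only the 2 times fitted (8.59%). For 48 h against 12 h (2 and 10) they were 0 and 0 with no normalization (0.531% and 2.86%), the deposited table (0.801% and 1.15%), the t-test after Benjamini-Hochberg (1.29% and 1.5%) and the fold rules (2.4% and up to 3.28%), 1 higher with 75th-percentile scaling (13.6%), and 4 and 18 with the array set as a block (29.5% and 28.4%, or 28.2% and 28.8% in the deposited table). With 1 array left out, members higher and lower ran from 4 to 6 and 9 to 14 at 48 h (20.9% to 25.8% and 21.3% to 26% of all features), 0 to 2 and 0 to 1 at 12 h (4.06% to 10.2% and 2.38% to 8.63%), and 0 to 3 and 6 to 9 for 48 h against 12 h (13.8% to 18.9% and 15.1% to 19.2%). The lowest count at 48 h, 9 lower, came without 0 h replicate 1, and that of 6 lower for 48 h against 12 h without 12 h replicate 1.

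Without normalization the median over all features at 48 h was -0.18 and that of the members -0.50, 0.07 at 12 h and -0.51 for 48 h against 12 h. The group medians were then -0.63 for the alpha ring, 0.06 for the catalytic beta subunits, -0.54 for the other beta subunits, 0.04 for the immunoproteasome, -0.58 for the ATPases, -0.29 for the non-ATPases and -0.71 for Psme3 and Pomp. With no detection filter the medians were -0.14 over members, -0.07 for the alpha ring and -0.29 for the ATPases, over more genes. Scaling gave -0.29 over members, the mean of a gene's probes 0.18 for the immunoproteasome, and normexp -0.14 for the non-ATPases. With 1 array left out the members' median ran -0.29 to -0.21 at 48 h, -0.03 to 0.05 at 12 h and -0.23 to -0.17 for 48 h against 12 h, and the groups' -0.44 to -0.31 for the alpha ring, 0.19 to 0.31 for the immunoproteasome, -0.46 to -0.29 for the ATPases, -0.21 to 0 for the non-ATPases and -0.54 to -0.40 for Psme3 and Pomp.

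The replicate numbers do not pair the arrays. Deviations from the group means of arrays with the same number correlated at -0.57 (0 h and 12 h), -0.58 (0 h and 48 h) and 0.63 (12 h and 48 h). For arrays of the same set the values were 0.57, 0.58 and 0.63. With 2 arrays per time point the deviations are equal and opposite. These are therefore the same correlations with the sign set by the pairing, not a second measurement. The main fit has no term for the set. With the replicate number as a block 0 members were lower at 12 h (5.54% of all features). No other count of calls moved by over 1.5 times, though Psmb5 and Psmb3 lost their calls at 48 h. The cause of these differences was not tested. The number of arrays and signals near background, as for Psmb9, limit the precision, and Psmf1 and the undetected members have no value.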
